A study of Mus musculus with 18 samples.

Results

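Aminoacyl-tRNA synthetases are the enzymes that join each amino acid to its tRNA. The mouse genes for 37 of them, 21 cytosolic and 16 mitochondrial, were followed by RNA sequencing in immortalized progenitor lines in which the helicase gene Ddx41 can be deleted. The 37 genes were taken by name from the 24062 gene symbols of the count table, and all 37 passed the filter on low counts that left 12859 genes for testing. Lineage-negative bone marrow cells from mice with floxed Ddx41 alleles had been immortalized with a retrovirus carrying MLL-AF9, a leukemia fusion gene, and all groups share this fusion, the culture cytokines IL-3, SCF and human IL-6, and a Rosa-CreERT recombinase that 4-hydroxytamoxifen (4OHT) switches on.

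The 6 groups had 3 libraries each, lettered A to C. FF cells carry floxed Ddx41 on both alleles and were treated with 1 µM 4OHT for 48 h, which turns the genotype into -/- (FF_4OHT), or with ethanol (FF_EtOH). Het cells carry a floxed and a normal allele, and become +/- with 4OHT (Het_4OHT) but not with ethanol (Het_EtOH). WT cells are +/+ and received 4OHT (WT_4OHT) or ethanol (WT_EtOH). The labels do not say that the lettered libraries are separate cultures, nor how many lines stand for a genotype. The p-values therefore cover only the spread between libraries, which may be technical, and a difference between genotypes cannot be told apart from one between lines.

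Each synthetase activates an amino acid with ATP and transfers it to the matching tRNA, so together the enzymes set the fidelity of the genetic code. Nuclear genes encode both sets. The cytosolic enzymes supply ribosomes in the cytoplasm. The mitochondrial enzymes, most of them named with a 2, are imported to supply translation of the few proteins encoded by mitochondrial DNA. Each gene is counted in only the cytosolic or the mitochondrial set, which does not show that its enzyme acts in that compartment alone. Several cytosolic enzymes are held with 3 scaffold proteins in the multisynthetase complex. Many cytosolic synthetase genes, with amino acid transporters and asparagine synthetase, are known targets of ATF4, the transcription factor that is translated when uncharged tRNA activates the kinase GCN2. ATF4 binds with C/EBP partners to the C/EBP-ATF response element, whose core is searched for below.

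The promoters that follow are shown because they belong to cytosolic genes that fell in FF cells and hold this core, TGATGNAA on either strand. Each is the 300 bases from 250 before to 50 after the RefSeq transcript start on GRCm38.p6, written 5′ to 3′ in the direction of the gene, with the core in capitals.
Gars, chr6:55037751-55038050, plus strand: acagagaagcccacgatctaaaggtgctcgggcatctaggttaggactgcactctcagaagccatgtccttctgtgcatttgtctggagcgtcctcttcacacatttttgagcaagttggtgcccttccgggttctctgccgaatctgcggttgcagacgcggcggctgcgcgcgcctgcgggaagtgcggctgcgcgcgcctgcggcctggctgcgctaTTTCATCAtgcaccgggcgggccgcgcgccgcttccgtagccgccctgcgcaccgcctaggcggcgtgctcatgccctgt
Iars, chr13:49681880-49682179, plus strand: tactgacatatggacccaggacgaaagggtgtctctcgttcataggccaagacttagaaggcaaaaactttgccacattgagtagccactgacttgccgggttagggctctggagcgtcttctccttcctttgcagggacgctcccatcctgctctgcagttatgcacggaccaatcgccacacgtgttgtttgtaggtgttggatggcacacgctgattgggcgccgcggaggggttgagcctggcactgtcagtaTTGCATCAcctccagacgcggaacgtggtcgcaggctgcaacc
Tars, chr15:11399609-11399908, minus strand: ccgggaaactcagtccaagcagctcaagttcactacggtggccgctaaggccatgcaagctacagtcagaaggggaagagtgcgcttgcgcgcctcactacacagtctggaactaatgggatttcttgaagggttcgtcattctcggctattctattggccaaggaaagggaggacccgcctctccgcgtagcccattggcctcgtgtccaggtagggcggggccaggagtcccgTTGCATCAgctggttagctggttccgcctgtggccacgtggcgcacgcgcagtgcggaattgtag
In these 3 promoters the capitals hold the core as read on the opposite strand. They begin 30 bases before the start in Gars, 15 bases before the start in Tars and at base 8 after it in Iars. RefSeq promoter windows were listed for 27 of the 37 genes, 13 cytosolic and 14 mitochondrial. The core was in a window of 5 of these 13 cytosolic genes, the others being Aars and Yars, and of 0 of these 14 mitochondrial genes. Of all 27025 genes with RefSeq windows, 4.51% held it in any window, and of all 32851 windows, 3.97% held it. A match is a match of letters and does not show that a factor binds there.

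The libraries held 24730213 to 49277884 counts. Ddx41 itself had 14.6, 16.5 and 17.7 CPM (read counts divided by each library's TMM-adjusted total, on one scale for all) in the FF_4OHT libraries, against 112, 82 and 73.7 CPM in the FF_EtOH libraries, a log2 fold change of -2.45 ± 0.17 (SE; edgeR adjusted p 8.09e-07). At 126 genes that part FF from WT libraries by more than 1 log2 unit, found without the 2 libraries in question and without the synthetases, the library labelled FF_EtOH C lay nearer to the WT mean at 126 and the library labelled WT_4OHT C nearer to the FF mean at 124. Tgm2, which was low in 4OHT libraries and high in ethanol libraries of the other two lines, had 18, 17.3 and 480 CPM in WT_4OHT A, B and C and 220, 227 and 25.4 CPM in WT_EtOH A, B and C, so WT_4OHT C and WT_EtOH C each went against the treatment label. Below, the libraries so labelled, FF_EtOH C and WT_4OHT C, are called the doubted pair, and results are also given without them. The summed level of 12 monocyte and macrophage markers was 2429 to 3123 CPM in FF_4OHT and 1062 to 1186 CPM in FF_EtOH. All 12 were measured, none was at 0 in either group, and 6 rose in FF cells while none fell. The summed level of 11 progenitor markers was 4481 to 5050 CPM in FF_4OHT and 5579 to 8432 CPM in FF_EtOH. Of the 11 genes 1, Csf2rb, rose and 2, Mpo and Myb, fell. Elane alone, which did not pass the test, had 2091 to 5372 CPM over the 18 libraries, so it makes up a large part of this sum. In bulk RNA, a change in the share of cells of a type cannot be told apart from a change in RNA per cell.

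Levels between genes were compared as CPM per kilobase of the longest coding transcript, as medians over all 18 libraries. The median cytosolic gene stood at 65.1 and the median mitochondrial gene, with Lars2 left out, at 8.82 CPM per kilobase. Among cytosolic genes, asparaginyl-tRNA synthetase (Nars) was highest at 194 CPM per kilobase, followed by the glycyl enzyme Gars at 164. The lowest was Tarsl2, a second cytosolic threonyl-tRNA synthetase, at 8.11 CPM per kilobase, while its better known relative Tars stood at 56.1. Among mitochondrial genes other than Lars2, Iars2 for isoleucine was highest at 25.3 and Mars2 for methionine lowest at 1.70 CPM per kilobase. The rank of Mars2 depends on its transcript length of 11294 bases, the longest of the genes compared. Before division by length Mars2 had 14.4 to 23.2 CPM, above Wars2 at 7.58 to 12.4 CPM and Pars2 at 8.11 to 13.9 CPM. Per kilobase, every cytosolic gene but Tarsl2 had a higher median than every mitochondrial gene but Lars2. Lars2, the mitochondrial leucyl-tRNA synthetase, stood apart at 460 CPM per kilobase and is described separately.

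Deletion of Ddx41 was followed by lower cytosolic synthetase RNA. In FF cells 11 of the 21 cytosolic genes fell and none rose, where 13.4% of all genes tested were called, 8.29% lower and 5.16% higher (edgeR, adjusted p below 0.05). The genes that fell encode the enzymes for valine (Vars), cysteine (Cars), threonine (Tars and Tarsl2), glutamate and proline (Eprs), methionine (Mars), asparagine (Nars), isoleucine (Iars), glycine (Gars), leucine (Lars) and glutamine (Qars). All 21 log2 fold changes were below 0, with a median of -0.36 and a range of -0.89 to -0.06, beside a median of -0.02 over all genes. At 17 of the 21 genes every FF_4OHT library lay below every FF_EtOH library, as at 21.5% of all genes, with 18.7% of all genes the other way. Without the doubted pair, 10 of the 21 genes fell and none rose, where 7.52% of all genes were lower and 4.43% higher, and the median was -0.37. With Het_4OHT A left out as well, 13 of the 21 fell, where 12.3% of all genes were lower and 9.21% higher.

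**Figure D1:**
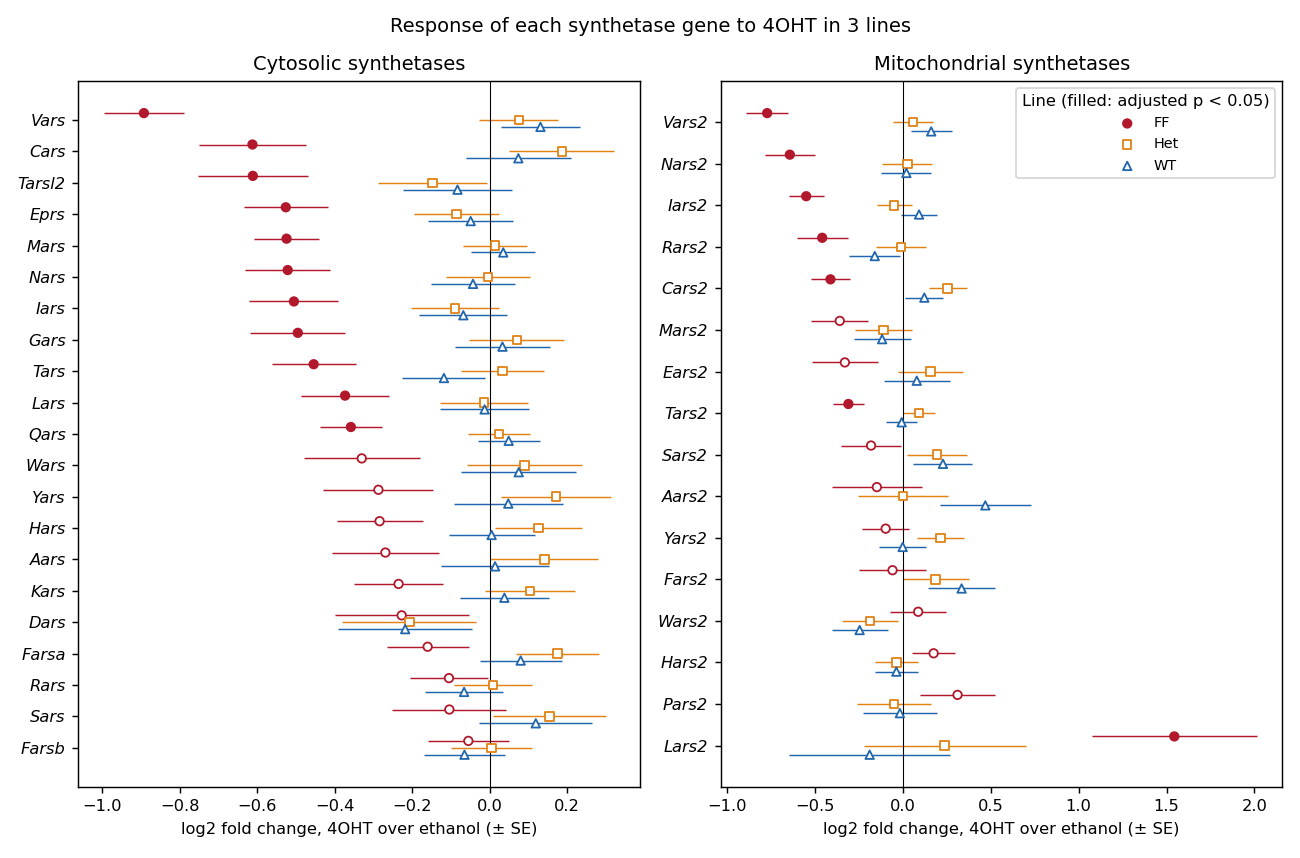
The log2 fold change of 4OHT over ethanol (x axis, ± SE) is plotted for each cytosolic gene (left) and each mitochondrial gene (right) in FF, Het and WT cells, 3 libraries per group; filled symbols passed the edgeR threshold. The FF symbols of all 21 cytosolic genes lie below 0, Lars2 lies at 1.54, and no Het or WT symbol is filled.

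Vars, the valyl-tRNA synthetase, fell most. It had 203, 207 and 194 CPM in FF_4OHT libraries A, B and C, against 405, 364 and 353 CPM in FF_EtOH libraries, and 340 to 450 CPM in the 12 Het and WT libraries. The 3 FF_4OHT libraries were the lowest of the 18 and did not come near any other. The log2 fold change was -0.89 ± 0.10 (SE; edgeR adjusted p 0.00012). Mars, the methionyl enzyme, had 135, 137 and 130 CPM in FF_4OHT, against 192, 185 and 199 CPM in FF_EtOH. Its libraries did not overlap, and the log2 fold change was -0.52 ± 0.08 (SE; edgeR adjusted p 0.000858).

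Eprs, the fused enzyme for glutamate and proline, had 324, 322 and 277 CPM in FF_4OHT, against 406, 478 and 445 CPM in FF_EtOH (log2 fold change -0.53 ± 0.11 SE; edgeR adjusted p 0.00524). Nars had 383, 390 and 383 CPM in FF_4OHT, against 531, 554 and 574 CPM in FF_EtOH (log2 fold change -0.52 ± 0.11 SE; edgeR adjusted p 0.00556). Both were lower in every FF_4OHT library, and at Nars the FF_4OHT libraries lay closer together than those of any other group. Qars, the glutaminyl enzyme of the multisynthetase complex, had 127, 130 and 137 CPM in FF_4OHT, against 176, 162 and 165 CPM in FF_EtOH. Its fall was among the smaller ones, at -0.36 ± 0.08 (SE; edgeR adjusted p 0.00811).

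Cars, the cysteinyl enzyme, had 86.4, 78.3 and 85.8 CPM in FF_4OHT, against 131, 122 and 130 CPM in FF_EtOH (log2 fold change -0.61 ± 0.14 SE; edgeR adjusted p 0.00818). Its level in the library labelled Het_4OHT A was 174 CPM, above the other 17 libraries, while Tarsl2 and Iars were lowest of their Het libraries there, at 19.5 and 227 CPM. Iars, the isoleucyl enzyme whose promoter is printed above, had 206, 215 and 197 CPM in FF_4OHT, against 269, 299 and 307 CPM in FF_EtOH (log2 fold change -0.51 ± 0.12 SE; edgeR adjusted p 0.00897). Tarsl2 had 17.6, 17.5 and 17.3 CPM in FF_4OHT, against 24, 27.5 and 28.7 CPM in FF_EtOH (log2 fold change -0.61 ± 0.14 SE; edgeR adjusted p 0.0101). At all 3 genes the FF_4OHT and FF_EtOH libraries did not overlap. The other 3 cytosolic genes that fell were Gars at -0.50, Tars at -0.45 and Lars at -0.37, and their libraries did not overlap either. The Lars call was lost in 13 of 17 alternatives, with adjusted p up to 0.157, among them the fit without the doubted pair.

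The 10 cytosolic genes that did not pass the test had log2 fold changes of -0.33 for Wars (tryptophan), -0.29 for Yars (tyrosine), -0.28 for Hars (histidine), -0.27 for Aars (alanine), -0.23 for Kars (lysine), -0.23 for Dars (aspartate), -0.16 for Farsa and -0.06 for Farsb (the subunits of the phenylalanyl enzyme), -0.10 for Rars (arginine) and -0.10 for Sars (serine). At 4 of them, Aars, Dars, Farsb and Sars, libraries of both treatments overlapped. Dars had about the same values in the other lines, -0.21 in Het and -0.22 in WT. Of the exonic bases of Aars, 14.3% are shared with Exosc6 on the same strand. Hars and Hars2 lie on opposite strands and share 8.0% and 4.6% of their exonic bases. Reads in shared bases cannot be assigned to either gene with certainty, since the strand setting of the counting is not given. Some other members share exonic bases as well. Aars and Yars hold the promoter core and did not pass, whereas Gars, Iars and Tars hold it and fell. Eprs, Qars and Tarsl2 also fell, and their windows lack the core. Dars, Farsa, Farsb, Kars and Sars lack it too and did not pass. Vars, which fell most, had no window listed, nor did Cars, Mars, Nars and Lars, which also fell. Hars, Rars and Wars, which did not pass, had none listed either. Whether the core goes with the fall was not tested.

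The fall was also visible in the summed level of the 21 cytosolic genes. The sum was 3822, 3874 and 3766 CPM in FF_4OHT libraries A, B and C, against 4990, 5040 and 5074 CPM in FF_EtOH libraries. In Het_4OHT it was 5408, 4609 and 5148 CPM, against 5231, 4605 and 4988 CPM in Het_EtOH. In WT_4OHT it was 4815, 5062 and 5459 CPM, against 5202, 5198 and 4960 CPM in WT_EtOH. The FF_4OHT libraries thus lay below all 15 others. In Het the groups overlapped, but within each letter, which pairs the Het libraries, the 4OHT library was the higher, by 177, 4 and 160 CPM for A, B and C, a difference that was not tested. In WT the groups overlapped through the C libraries, which went against their treatment labels, and WT_4OHT A and B both lay below WT_EtOH A and B. Without the library labelled FF_EtOH C the FF_EtOH mean was 5015 CPM in place of 5034 CPM. Both Het B libraries, the lowest of the Het libraries, also had the highest monocyte marker sums of Het, 2343 CPM with 4OHT and 2005 CPM with ethanol. Whether the rise in monocyte markers has a part in the synthetase values of FF_4OHT was not tested.

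**Figure D2:**
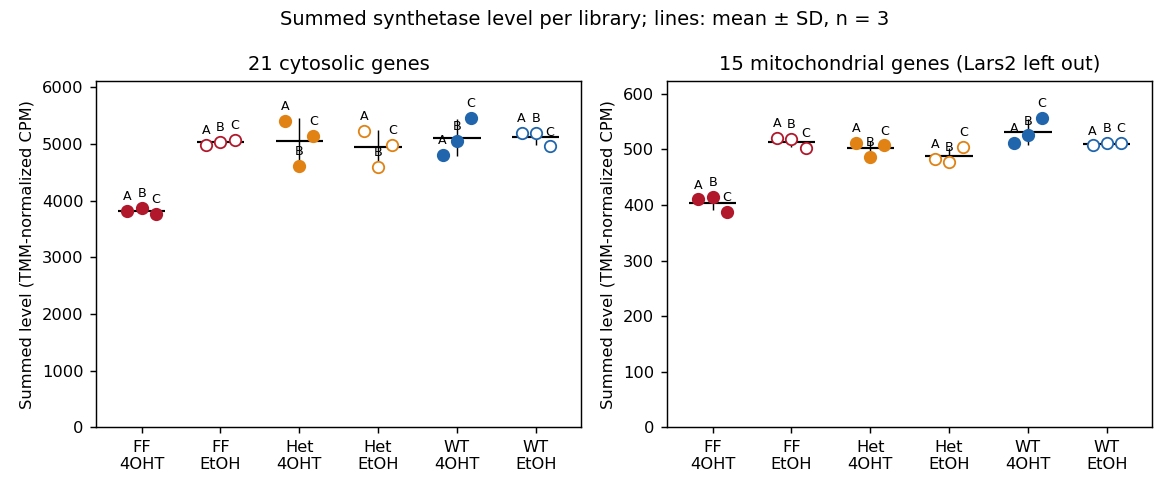
Summed TMM-normalized CPM (y axis) of the 21 cytosolic genes (left) and of the 15 mitochondrial genes without Lars2 (right) is shown for each library of the 6 groups, with the group mean ± SD (n = 3). The FF_4OHT libraries lie at 3766 to 3874 CPM for the cytosolic genes and at 388 to 415 CPM for the mitochondrial genes, below all other libraries in both panels.

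Of the 8 enzymes that belong to the multisynthetase complex, 5 fell (Eprs, Iars, Lars, Mars and Qars), with a median log2 fold change of -0.36 over the 8; without the doubted pair 4 fell, and Lars was not among them. Of the 13 cytosolic genes outside it, 6 fell, with a median of -0.33. Synthetases come in a pair of unrelated folds. Of the 9 cytosolic enzymes of class I, 6 fell, or 5 without the doubted pair, and of the 11 of class II, 4 fell; Eprs joins a domain of each class and is counted in neither. These groupings were made after the values had been seen, and differences between them were not tested. Beside these counts, 8.29% of all genes tested fell, or 7.52% without the doubted pair.

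Among mitochondrial synthetases, 6 of 16 fell in FF cells, 1 rose and 9 did not pass the test, where 8.29% of all genes fell and 5.16% rose. Those that fell serve valine (Vars2), asparagine (Nars2), isoleucine (Iars2), arginine (Rars2), cysteine (Cars2) and threonine (Tars2), and the gene that rose was Lars2. Without Lars2 the median log2 fold change was -0.31, and 12 of 15 genes were below 0. The other 3 were Pars2 (proline) at 0.31, Hars2 (histidine) at 0.17 and Wars2 (tryptophan) at 0.09, none of which passed the test. The 6 genes below 0 that did not pass were Mars2 (methionine) at -0.36, Ears2 (glutamate) at -0.33, Sars2 (serine) at -0.18, Aars2 (alanine) at -0.15, Yars2 (tyrosine) at -0.10 and Fars2 (phenylalanine) at -0.06. Without the doubted pair, 4 genes fell, namely Vars2, Iars2, Nars2 and Cars2, and Lars2 still rose, where 7.52% of all genes fell and 4.43% rose.

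Vars2 fell most. It had 26.0, 23.7 and 23.5 CPM in FF_4OHT libraries, against 46.0, 40.1 and 38.9 CPM in FF_EtOH libraries (log2 fold change -0.77 ± 0.12 SE; edgeR adjusted p 0.000679). Iars2 had 95.7, 104 and 94.1 CPM in FF_4OHT, against 141, 145 and 144 CPM in FF_EtOH (log2 fold change -0.55 ± 0.10 SE; edgeR adjusted p 0.00237). Neither gene's FF_4OHT libraries reached the level of any other library. Of the exonic bases of Iars2, 22.9% are shared with Rab3gap2 on the opposite strand, and the strand setting of the counting is not given in the sources used here, so reads there cannot be assigned to either gene with certainty. Nars2 had 10.8, 11.1 and 10.1 CPM in FF_4OHT, against 12.8, 18.7 and 18.5 CPM in FF_EtOH (log2 fold change -0.64 ± 0.14 SE; edgeR adjusted p 0.00811). FF_EtOH A stood nearer to the 4OHT libraries than to the other ethanol libraries at this gene. Cars2 had 27.2, 24.7 and 24.5 CPM in FF_4OHT, against 34.5, 35.4 and 31.8 CPM in FF_EtOH (log2 fold change -0.41 ± 0.11 SE; edgeR adjusted p 0.0200). Its libraries did not overlap. Rars2 at -0.46 and Tars2 at -0.31 also fell without overlap, and both calls were lost without the doubted pair. The sum of the 15 genes was 404 ± 14.5 CPM in FF_4OHT and 514 ± 10.3 CPM in FF_EtOH (SD, n = 3 each).

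**Figure D3:**
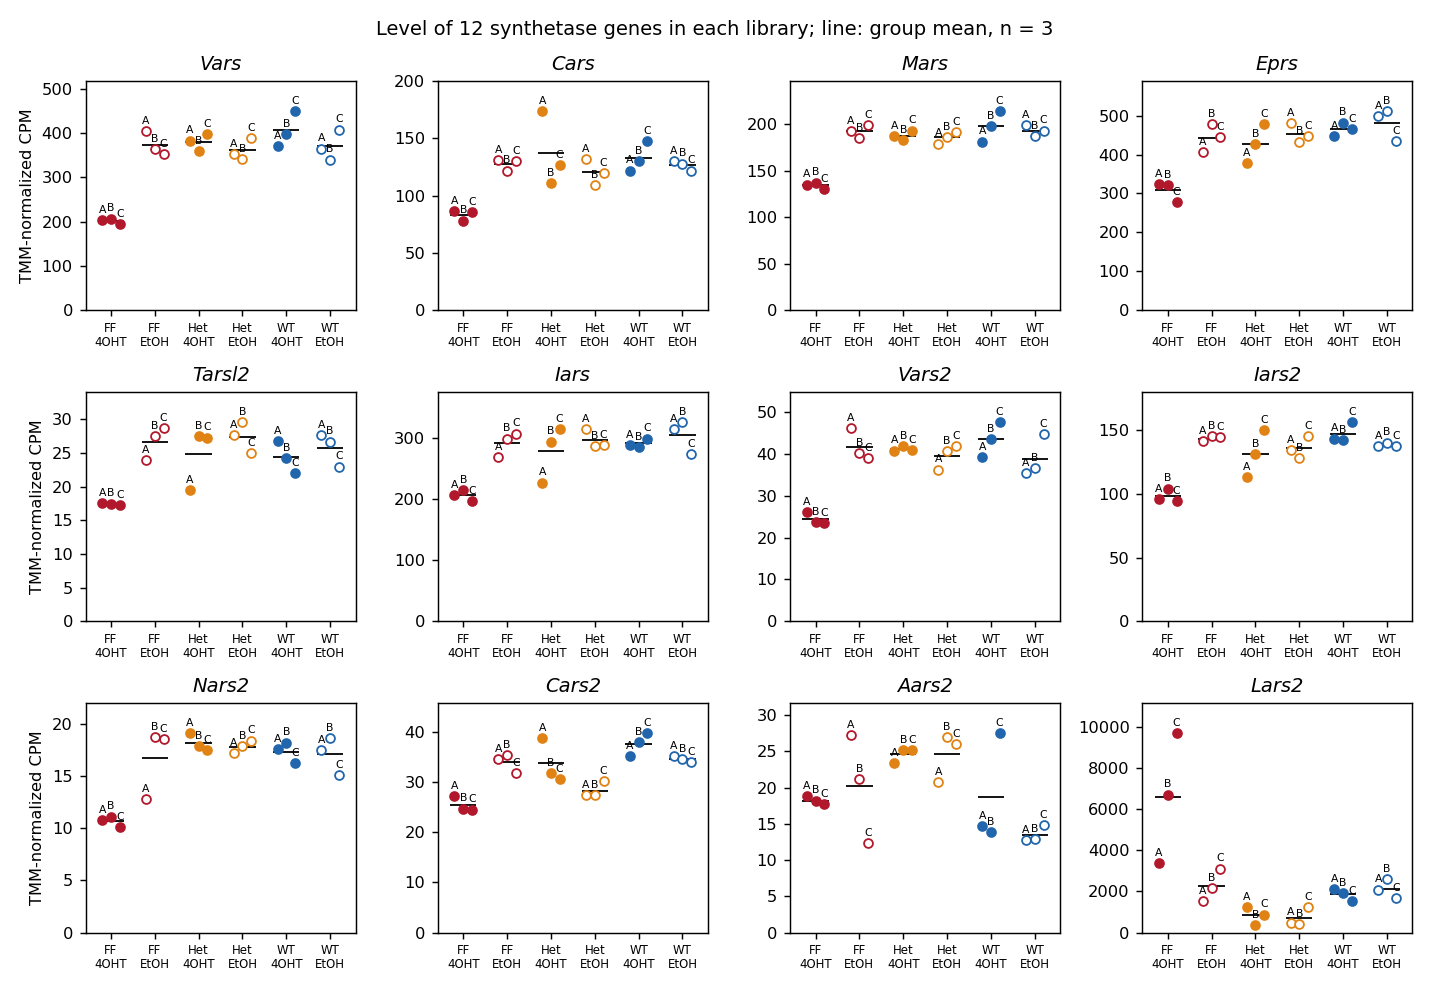
TMM-normalized CPM (y axis, from 0) of 12 synthetase genes is plotted for each library by group, with the group mean as a line (n = 3) and the replicate letter above each point. Vars lies at 194 to 207 CPM in FF_4OHT and at 340 CPM or above elsewhere, while Aars2 shows FF_EtOH C at 12.3 CPM and WT_4OHT C at 27.5 CPM, each away from its own group.

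For 13 amino acids a cytosolic gene was set against the mitochondrial gene, with Tars in place of Tarsl2 for threonine. In FF cells, where 8.29% of all genes fell, both genes fell for 5 of them, cysteine, isoleucine, asparagine, threonine and valine. The cytosolic gene alone fell for leucine, by the Lars call that most alternatives lost, and for methionine, the mitochondrial gene alone fell for arginine, and neither fell for the other 5. Valine had the largest fall on both sides, at -0.89 for Vars and -0.77 for Vars2. Phenylalanine, glutamate and proline were left out of the 13, since their cytosolic enzyme has 2 subunits (Farsa and Farsb) or is the fused Eprs. Of their genes Eprs fell, while Farsa, Farsb, Fars2, Ears2 and Pars2 did not pass. Glycine, lysine, glutamine and aspartate have no gene in the mitochondrial set and could not be paired. The pair for arginine had -0.10 for Rars and -0.46 for Rars2. This pairing was made after the values had been seen, and agreement between the compartments was not tested.

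**Figure D4:**
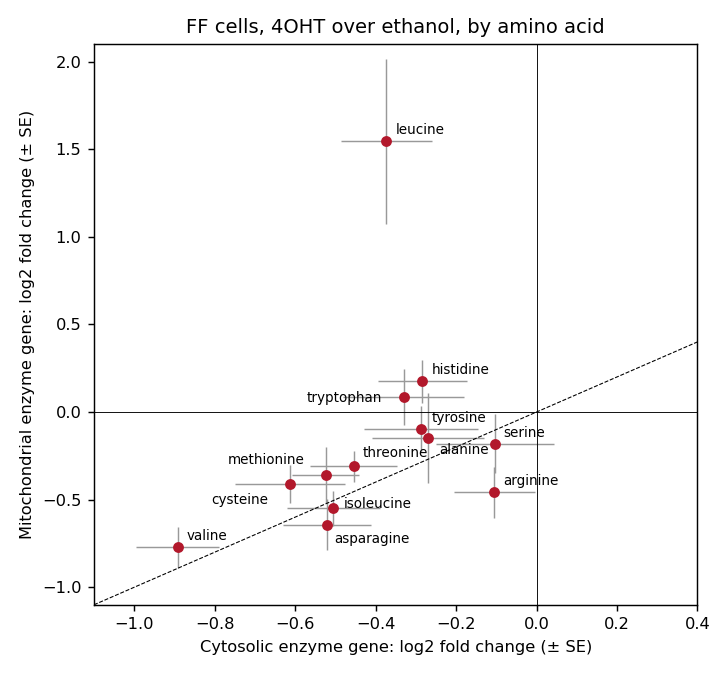
The log2 fold change of 4OHT over ethanol in FF cells is plotted for the cytosolic (x axis) and the mitochondrial enzyme gene (y axis) of 13 amino acids, with SE bars (n = 3 libraries per group) and a dashed line of equal change. Valine lies lowest on both axes, at -0.89 and -0.77, and leucine stands apart through Lars2 at 1.54.

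Lars2 went the other way, with a wide spread. It had 3359, 6709 and 9691 CPM in FF_4OHT libraries A, B and C, against 1521, 2148 and 3109 CPM in FF_EtOH libraries. It had 1254, 376 and 875 CPM in Het_4OHT, against 482, 420 and 1223 CPM in Het_EtOH, and 2118, 1920 and 1537 CPM in WT_4OHT, against 2090, 2606 and 1660 CPM in WT_EtOH. The FF libraries of both treatments did not overlap, but FF_4OHT A lay close to FF_EtOH C. The log2 fold change was 1.54 ± 0.47 (SE; edgeR adjusted p 0.0399), with the largest standard error of the 37 genes. It was 1.84 without the doubted pair, and the call was lost in 6 of 17 alternatives, with adjusted p up to 0.188.

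Lars2 held 89.1% to 96.2% of all mitochondrial synthetase CPM in FF_4OHT and 74.5% to 86.1% in FF_EtOH, so any sum that includes it is mostly Lars2. Rn45s, the precursor of ribosomal RNA, had 5987, 18286 and 41160 CPM in FF_4OHT, in the same order of libraries as Lars2, against 4539, 3828 and 6464 CPM in FF_EtOH. The library labelled Het_4OHT A had 14895 CPM of Rn45s with 1254 CPM of Lars2, the highest of each within Het. The longest coding Lars2 transcript has 3894 bases. Bases 3278 to 3349 of it match the transcript Gm15564 on chromosome 16 at 98.6% identity, and bases 3233 to 3329 match AA474408 on chromosome 7 at 94.8%. Neither of these genes is listed in the count table, and no source used here says how reads with several matches were counted. What part such reads or ribosomal RNA carry-over have in the Lars2 values was not tested.

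**Figure D5:**
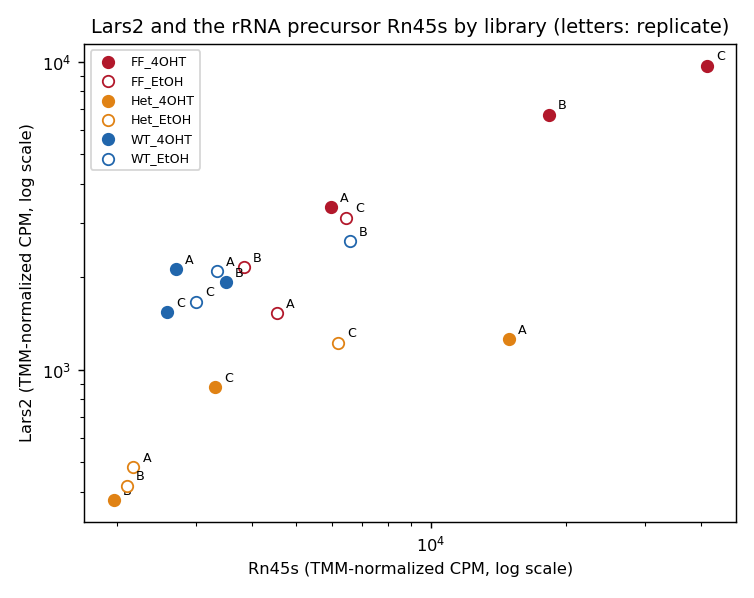
Lars2 (y axis) is plotted against Rn45s (x axis), both as TMM-normalized CPM on log scales, for the 18 libraries by group, with replicate letters. FF_4OHT B and C lie highest on both axes, at 6709 and 9691 CPM of Lars2, and Het_4OHT A has 14895 CPM of Rn45s with 1254 CPM of Lars2.

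In Het and WT cells, none of the 37 genes was called between 4OHT and ethanol (edgeR), where 0.0156% of all genes were called in Het and 0 genes in WT. The lack of calls does not show that 4OHT left these genes unchanged. At an unadjusted p below 0.05 there was 1 member in Het, Cars2, and 0 in WT, where 1.91% of all genes in Het and 2.14% in WT were below it. DESeq2 and limma voom called 0 members in either line. The median log2 fold change of the 21 cytosolic genes was 0.03 in Het and 0.01 in WT. The Het values ran from -0.21 to 0.19 over the cytosolic genes and the WT values from -0.22 to 0.13. The sum of the 15 mitochondrial genes was 502 ± 13.3 CPM in Het_4OHT and 488 ± 14.8 CPM in Het_EtOH, and 530 ± 22.9 CPM in WT_4OHT and 510 ± 2.26 CPM in WT_EtOH (SD, n = 3 each). Within each letter of Het the mitochondrial sum was higher with 4OHT, by 30, 9 and 2 CPM for A, B and C, which was not tested. With a replicate block, Het still gave 0 member calls. The WT values include the C libraries that went against their labels. Without FF_EtOH C, WT_4OHT C and WT_EtOH C, 16 of the 21 cytosolic genes were below 0 in WT, with a median log2 fold change of -0.07 and a range of -0.33 to 0.13, and 0 members were called. The cytosolic sum then averaged 4939 CPM in WT_4OHT, against 5202 and 5198 CPM in the remaining WT_EtOH libraries.

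The difference between the FF response and the WT response was tested directly as an interaction. It was below 0 and past the threshold for 4 of the 37 genes and above 0 for none, where 2.3% of all genes were called, 1.89% lower. The 4 genes were Vars at -1.02 ± 0.14, Vars2 at -0.93 ± 0.16, Iars2 at -0.64 ± 0.14 and Mars at -0.56 ± 0.12 (log2 difference ± SE; edgeR adjusted p 0.00431, 0.00991, 0.0280 and 0.0219, in that order). Without the doubted pair, Vars at -0.98 and Vars2 at -0.91 were the members called, where 0.905% of all genes were.

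Against Het, the interaction was below 0 and past the threshold for 5 of the 37 genes and above 0 for none, where 2.5% of all genes were called, 2.09% lower. They were Vars at -0.97 ± 0.14, Vars2 at -0.83 ± 0.16, Cars at -0.80 ± 0.19, Cars2 at -0.67 ± 0.15 and Mars at -0.54 ± 0.12 (log2 difference ± SE; edgeR adjusted p 0.00381, 0.0167, 0.0397, 0.0302 and 0.0219, in that order). Vars, Vars2 and Mars therefore passed against both lines. Without the doubted pair Cars was no longer called against Het and the other 4 were, where 2.45% of all genes were called. These interactions share the FF libraries. For the other genes that fell in FF cells, a difference from Het or WT did not pass the test, which does not show that the lines responded alike. Over the 21 cytosolic genes the median interaction was -0.36 against WT and -0.42 against Het, beside -0.02 over all genes in each.

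The lines were also compared before deletion. FF_EtOH against WT_EtOH gave 0 calls among the 37 genes and among all genes tested (edgeR), with 1 member at an unadjusted p below 0.05, where 5.5% of all genes were, and 0 members called by DESeq2 or limma voom. That member was Aars2, the mitochondrial alanyl enzyme. It had 27.2, 21.2 and 12.3 CPM in FF_EtOH A, B and C and 14.7, 13.9 and 27.5 CPM in WT_4OHT A, B and C, against 12.8, 12.9 and 14.8 CPM in WT_EtOH. At this gene too, FF_EtOH C and WT_4OHT C each sat at the level of the other line. Without both libraries Aars2 was 0.84 higher on the log2 scale in FF_EtOH (edgeR adjusted p 0.0031), the one member called, where 4.71% of all genes were.

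Het_EtOH against WT_EtOH gave 4 calls among the 37 genes, 3 lower and 1 higher, where 23.7% of all genes were called, 10.4% lower and 13.3% higher. Tars had 223, 171 and 194 CPM in Het_EtOH, against 259, 267 and 240 CPM in WT_EtOH (log2 fold change -0.38 ± 0.11 SE; edgeR adjusted p 0.0162). Tars2 was lower by about as much, at -0.37 ± 0.09 (SE; edgeR adjusted p 0.00719). Tarsl2, which also serves threonine, did not pass, with a log2 fold change of 0.09 (edgeR adjusted p 0.709). Lars2 was lower at -1.58 ± 0.47 (SE; edgeR adjusted p 0.0220). Aars2 was higher, with 20.8, 27.0 and 26.0 CPM in Het_EtOH (log2 fold change 0.86 ± 0.26 SE; edgeR adjusted p 0.0232). None of the 4 had overlapping libraries. The call was lost in 6 of 17 alternatives for Tars, in 4 for Aars2, in 3 for Lars2 and in 0 for Tars2. Without the doubted pair, which enters neither group but shares the estimate of spread, the same 4 genes were called, where 25.8% of all genes were. That fit still includes WT_EtOH C, which went against its treatment label. With 1 library of these groups left out, the call was lost in 4 of 6 fits for Tars and for Aars2. It was lost in 3 of 6 for Lars2 and in 0 for Tars2, where 17.1% to 19.7% of all genes were called.

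Genes that work with the synthetases were followed in 5 lists of 48 genes in all. In FF cells 7 of the 48 fell and 1 rose. This is 16.7% called, beside 13.4% of all genes, and 14.6% lower, beside 8.29% of all genes. Without the doubted pair 6 fell and 0 rose. Of the 3 scaffold proteins of the multisynthetase complex, Aimp2 fell, with 33.5, 37.6 and 35.7 CPM in FF_4OHT, against 63.8, 43.1 and 49.6 CPM in FF_EtOH (log2 fold change -0.55 ± 0.17 SE; edgeR adjusted p 0.0458), while Aimp1 at 0.19 and Eef1e1 at -0.24 did not pass. Aimp2 was not called without the doubted pair (edgeR adjusted p 0.0518). Among 13 charging partners, which include proofreading deacylases and the mitochondrial amidotransferase, none passed, and their median log2 fold change was -0.11. Among 8 genes of tRNA export, repair and delivery, Xpot, the nuclear exporter of tRNA, fell with 225, 220 and 184 CPM in FF_4OHT, against 350, 340 and 331 CPM in FF_EtOH (log2 fold change -0.70 ± 0.16 SE; edgeR adjusted p 0.00784). The elongation factor Eef1a1, which carries charged tRNA to the ribosome, had a log2 fold change of 0.24 and did not pass.

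Of 12 genes of the uncharged-tRNA response, 1 fell and 1 rose, which is 16.7% called, near the 13.4% of all genes. Asns, asparagine synthetase, had 166, 156 and 156 CPM in FF_4OHT, against 319, 235 and 306 CPM in FF_EtOH (log2 fold change -0.85 ± 0.16 SE; edgeR adjusted p 0.00243). Impact, an inhibitor of GCN2, had 49.1, 42.4 and 36.3 CPM in FF_4OHT, against 24.9, 28.8 and 17.2 CPM in FF_EtOH (log2 fold change 0.85 ± 0.23 SE; edgeR adjusted p 0.0228), and was not called without the doubted pair (edgeR adjusted p 0.0877). Neither gene's libraries overlapped. Atf4 RNA had 637, 522 and 474 CPM in FF_4OHT, against 865, 632 and 652 CPM in FF_EtOH, with overlap and no call (log2 fold change -0.40 ± 0.16 SE; edgeR adjusted p 0.114). ATF4 is controlled mainly through its translation, which RNA levels do not show.

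Of 12 amino acid transporters, 4 fell and none rose, where 8.29% of all genes fell, and all 12 log2 fold changes were below 0. Slc1a5, a carrier of glutamine and other neutral amino acids, had 156, 171 and 153 CPM in FF_4OHT, against 346, 338 and 315 CPM in FF_EtOH (log2 fold change -1.06 ± 0.13 SE; edgeR adjusted p 0.000147). Its relative Slc1a4 had 7.41, 6.98 and 6.70 CPM in FF_4OHT, against 13.4, 19.2 and 24.7 CPM in FF_EtOH (log2 fold change -1.44 ± 0.18 SE; edgeR adjusted p 0.000218). Slc7a5, the transporting chain of the large neutral amino acid carrier, had 305, 315 and 283 CPM in FF_4OHT, against 551, 429 and 397 CPM in FF_EtOH (log2 fold change -0.61 ± 0.14 SE; edgeR adjusted p 0.00872). Slc6a9, a glycine transporter, was low in both groups, at 2.13 ± 0.24 CPM in FF_4OHT and 6.94 ± 2.60 CPM in FF_EtOH (SD, n = 3 each), and fell by 1.70 on the log2 scale. All 4 had no overlap between the treatments, and all 4 were called without the doubted pair.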

How the data were processed

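RNA-seq libraries were made from total RNA in 6 groups of 3. The authors deposited raw read counts as whole numbers, 1 per gene symbol and library. The submitters' processing notes name HISAT2 2.0.5, featureCounts 1.5.2 of the Subread package, FastQC 0.11.7 and CASAVA 1.4, and the mm10 build. Not given in the sources used here are the annotation, strand setting and library kit. No pair among 153 library pairs was identical.

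The counts were tested with edgeR 4.0.16 in R 4.3.3 (robust quasi-likelihood F test, TMM, filterByExpr with minimum count 10, 1 fit to 18 libraries with a mean per group). P-values were Benjamini-Hochberg adjusted over 12859 genes, with a threshold of 0.05. Standard errors come from the F statistic. Alternatives used DESeq2 1.42.0, limma 3.58.1 (voom), other scalings and filters, the compared groups alone, a replicate block and left-out libraries. The code was tested on simulated data. Gene positions, transcript lengths and exon overlaps come from GENCODE M21 and promoters from RefSeq on GRCm38.p6.

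Members and lists were chosen with earlier results of these data known. Library values are given for up to 8 cytosolic and 4 mitochondrial members called in FF cells with the smallest adjusted p, for members called in other comparisons and, in companion lists, for called genes. In Het, libraries of the same letter deviated together from their group means (correlations 0.476, 0.697 and 0.402), so the letters pair the Het libraries there. In FF (0.167, 0.182 and 0.0671) and WT (0.389, -0.0234 and 0.25) the correlations were lower. The FF and WT group means include the doubted pair and WT_EtOH C, so these values cannot show whether the letters pair libraries there.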

Additional observations from a re-analysis of the deposited data

Results flagged for a closer look

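The response to 4OHT differed between lines at 6 synthetase genes, by the interaction test of edgeR. FF minus WT was -1.02 for Vars, -0.93 for Vars2, -0.64 for Iars2 and -0.56 for Mars on the log2 scale. FF minus Het was -0.97 for Vars, -0.83 for Vars2, -0.80 for Cars, -0.67 for Cars2 and -0.54 for Mars. In each case every FF_4OHT library lay below every FF_EtOH library. The Vars differences, and that of Vars2 from WT, passed the threshold in all 23 alternatives. The call was lost in 5 of 23 alternatives for Vars2 against Het, in 8 for Cars2, in 10 for Mars against each line, in 12 for Iars2 and in 14 for Cars. Cars and Cars2 against Het include the library labelled Het_4OHT A, the highest of the Het libraries at both genes, at 174 and 38.8 CPM. The Het response of Cars2 was 0.255 on the log2 scale and was not called.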

How the results depend on the processing

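No member call changed direction in any alternative. Of 31 member calls over 7 comparisons, 123 of 581 repeats lost the call. Of the 18 calls in FF cells, 8 were kept throughout (Vars, Mars, Eprs, Nars, Qars, Cars, Vars2 and Iars2), while Lars and Rars2 were lost in 13 of 17 alternatives, Tars2 in 9, Lars2 in 6, Cars2 in 4 and Gars in 2. With 1 library left out, FF cells gave 7 to 11 cytosolic calls, 7 of them without FF_4OHT C, and 2 to 5 mitochondrial calls, with 2 without FF_4OHT C, 3 without FF_4OHT B or FF_EtOH A and 4 without FF_EtOH B. In these fits 5.37% to 9.9% of all genes were called, beside 13.4% in the main fit. The share was 5.37% without FF_4OHT C, 7.39% without FF_4OHT B, 9.06% without FF_EtOH A and 9.7% without FF_EtOH B. With no count filter there were 4 mitochondrial calls, where 8.15% of all genes were called.

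The 5 calls of FF minus Het became 12 with DESeq2, 8 with the replicate block, 3 without FF_EtOH C, WT_4OHT C and WT_EtOH C, 2 with no filter, 1 with the compared groups alone and 1 to 7 with 1 library left out. The share of all genes called moved too, from 2.5% to 5.69%, 5.87%, 2.57%, 1.2% and 0.448%, in that order. With 1 library left out it was 0.521% to 3.69%. The 4 calls of FF minus WT became 10 with DESeq2, 8 with the compared groups alone, 7 with the replicate block, 2 with no filter, 2 without FF_EtOH C and WT_4OHT C, 2 with WT_EtOH C left out as well, and 2 to 5 with 1 library left out. Here the share of all genes called moved from 2.3% to 5%, 3.72%, 4.9%, 0.969%, 0.905% and 0.553%, in that order. With 1 library left out it was 0.637% to 1.91%. Het against WT in ethanol gave 1 to 4 calls with 1 library left out, where 17.1% to 19.7% of all genes were called. FF against WT in ethanol gave 1 call in each of the 3 fits without the doubted libraries, where 3.68% to 7.55% of all genes were called. The 8 companion calls became 15 with the compared groups alone, 14 with the replicate block, 19 without FF_EtOH C, WT_4OHT C and Het_4OHT A, and 5 to 8 with 1 library left out. For these the share of all genes called moved from 13.4% to 16.5%, 21.5%, 21.5% and 5.37% to 9.9%, in that order. The cause of these shifts was not tested. Het and WT responses gave 0 member calls in every alternative run. With 3 libraries per group, changes the size of the smaller ones here may be missed.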
